A study of Mus musculus with 22 samples.

Results

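Fatty acid elongases and desaturases are the membrane enzymes of the endoplasmic reticulum that lengthen fatty acyl chains and place double bonds in them. The set comprised 10 genes chosen by name from among 24011 named genes: the elongases Elovl1, Elovl2, Elovl3, Elovl5, Elovl6 and Elovl7, the front-end desaturases Fads1, Fads2 and Fads3, and the stearoyl-CoA desaturase Scd2. Each of the 10 had 1 value on every array, and no filter on dim genes was applied.

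RNA was taken from whole liver of 22 female C57BL/6J mice at 12 weeks of age and read on Affymetrix MoGene 2.0 ST arrays, with 1 array per mouse. The 4 groups were wild-type mice on chow (WT_chow, n = 5), wild-type mice on UDCA (WT_UDCA, n = 6), Cyp2c70 knockout mice on chow (KO_chow, n = 5) and Cyp2c70 knockout mice on UDCA (KO_UDCA, n = 6). UDCA, ursodeoxycholic acid, is a hydrophilic bile acid and made up 0.1% of the diet for 7 weeks, beginning when the mice were 5 weeks old. Cyp2c70 encodes the mouse enzyme that makes muricholic acids, and the labels do not say which part of the gene was removed. The question was how the loss of Cyp2c70 changes the liver and what UDCA does in its absence.

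In the elongation cycle an ELOVL enzyme performs the first, condensing step, and a reductase, a dehydratase and a second reductase finish each round. Desaturases take electrons from cytochrome b5. Elovl5, Elovl2, Fads1 and Fads2 act in sequence on polyunsaturated fatty acids from the diet. Elovl6 and the stearoyl-CoA desaturases shape the products of fatty acid synthesis, and Elovl1, Elovl3 and Elovl7 extend saturated and monounsaturated chains. In mouse liver many of these genes are targets of the sterol-regulated factor SREBP-1c, and Elovl3 is known for a daily rhythm and a difference between the sexes.

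RefSeq promoter windows of assembly GRCm38.p6, from 250 bases before a gene's start to 50 after it, were at hand for 7 of the 10 members. A pair of stretches is shown, for the elongase whose level rose most in KO_chow and for Elovl5, a known SREBP-1c target. Capitals mark matches, on either strand, to the 6 motifs spelled out after them. No overlap between matches of different motifs occurred in the stretches. The Elovl7 stretch lies at chr13:108214154-108214325 on the plus strand and ends before the annotated gene, and the Elovl5 stretch lies at chr9:77917115-77917364 on the plus strand.
Elovl7: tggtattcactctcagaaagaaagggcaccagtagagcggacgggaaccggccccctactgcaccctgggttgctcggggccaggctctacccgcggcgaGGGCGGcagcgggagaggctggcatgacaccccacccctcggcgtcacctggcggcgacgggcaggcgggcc
Elovl5: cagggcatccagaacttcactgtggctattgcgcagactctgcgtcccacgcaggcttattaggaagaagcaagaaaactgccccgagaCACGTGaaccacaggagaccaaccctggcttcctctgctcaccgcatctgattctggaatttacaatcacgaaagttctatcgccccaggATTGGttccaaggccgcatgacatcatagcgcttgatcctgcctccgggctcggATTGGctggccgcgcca
The Elovl7 stretch of 172 bases held 1 GC box, and the whole window of 300 bases held 3. The Elovl5 stretch of 250 bases held 2 CCAAT boxes, read on the minus strand, and 1 E-box. The shares of all 32851 RefSeq windows of 300 bases that hold each motif on either strand are given for scale. The GC box was searched as GGGCGG and stood in 35.7% of windows. The CCAAT box, searched under the letters of its name, stood in 37.4%. The E-box of clock and carbohydrate-responsive factors was searched as CACGTG and stood in 7.15%. The AP-1 site was searched as TGANTCA, where N is any base, and stood in 7.81%. The TEAD site was searched as GGAATG and stood in 14.7%. The core of the sterol element was searched as TCACNCCA and stood in 4.36%. A match describes these letters only.

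Levels are given as log2 intensity, and changes as differences of group means on that scale with their standard error (SE). Calls are those with a limma adjusted p below 0.05, where the Benjamini-Hochberg method was applied across the 24011 genes. Levels of different genes were not set against each other, since probes differ in brightness. The median log2 intensity of an array lay between 4.846 and 4.96. Cyp2c70 averaged 11.49 ± 0.14 (SD, n = 5) in WT_chow, 11.43 ± 0.14 (n = 6) in WT_UDCA, 10.65 ± 0.12 (n = 5) in KO_chow and 10.51 ± 0.17 (n = 6) in KO_UDCA, and no knockout array overlapped a wild-type one. KO_chow replicates 2 and 5 stood apart from the other arrays on the first principal component, at 53.4 and 51.9. The other 3 KO_chow arrays lay at 15.7, 18.6 and 32.5, and the other groups between -13.1 and -0.66. This component held 26.7% of the variance, and results with KO_chow are therefore also given without both arrays, a setting chosen after seeing the data. Hepatocyte markers were at similar summed intensity in all groups, from 43581 to 47103. In KO_chow vs WT_chow 0 of 11 were called, beside 13.7% of all genes. A sum of unlogged intensity is led by its brightest genes, and on normalized arrays it does not measure hepatocyte content.

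In knockout mice on chow the set split: Elovl7, Scd2 and Fads3 rose, Elovl3 and Fads1 fell, and the other 5 members were not called. Thus 5 of 10 members were called in KO_chow vs WT_chow, beside 13.7% of all genes. By direction these were 3 higher members beside 7.69% of all genes and 2 lower members beside 6.03%. Members were chosen with earlier results of these data known, so such counts, here and below, do not test the set. Among 8 other elongases and desaturases outside it, 2 were called, both lower. The median change of the members was -0.10, and that of all genes was -0.037. In knockout mice on UDCA, Elovl7, Scd2 and Fads3 fell again relative to KO_chow, whereas Elovl3 stayed uncalled and near its KO_chow level. The panel of levels by mouse shows these patterns.

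**Figure D1:**
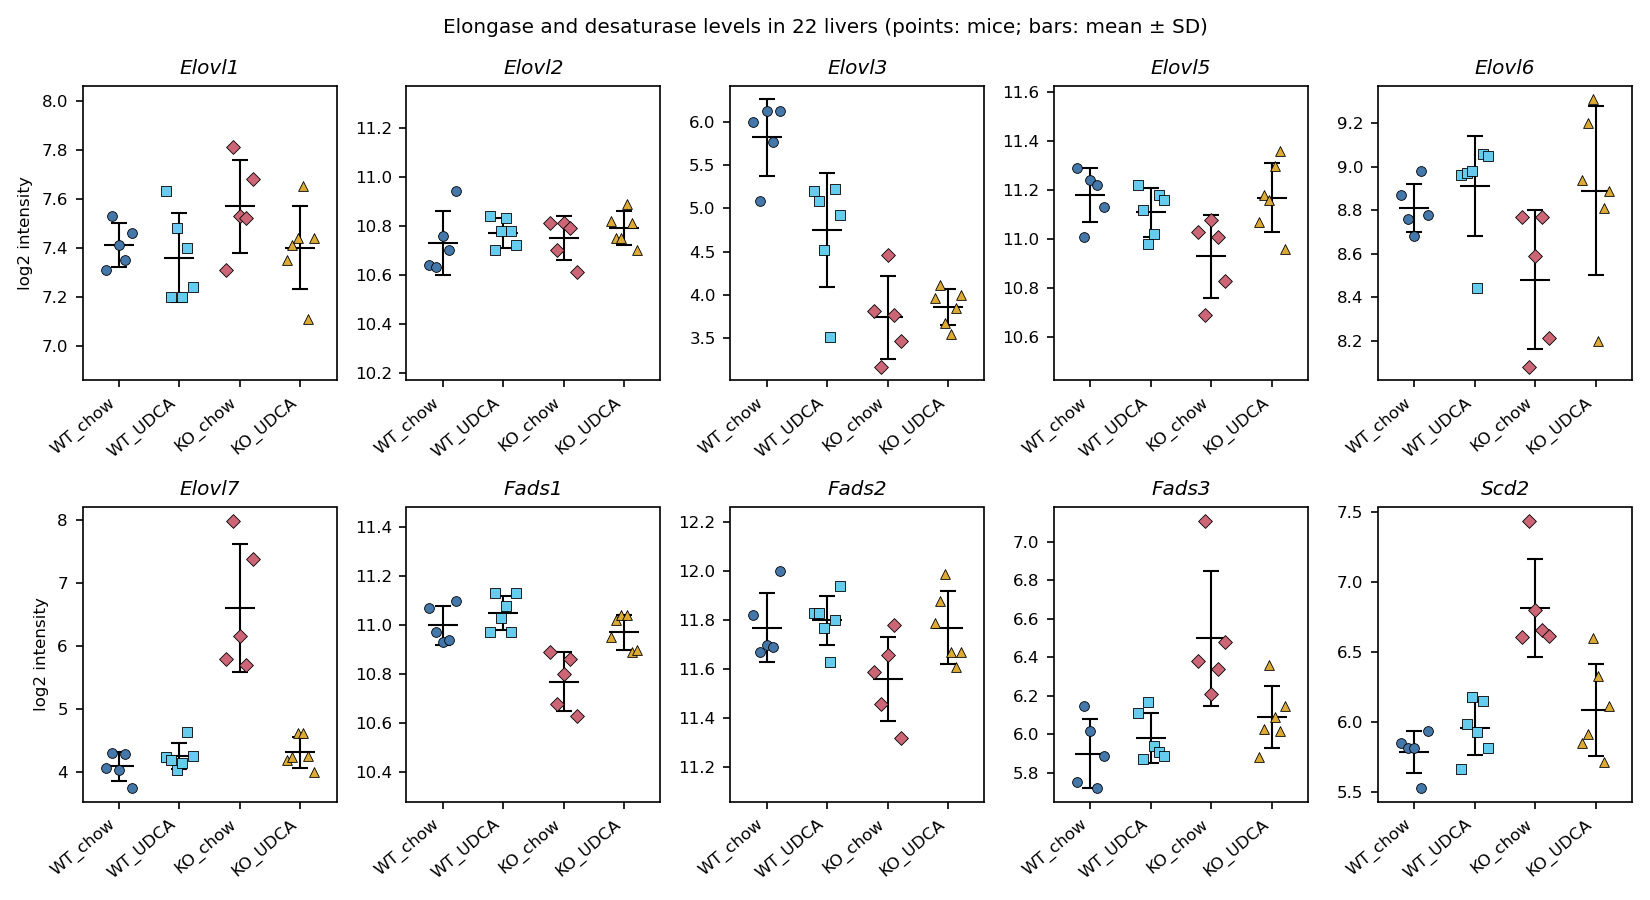
Log2 intensity (vertical axes, each with its own range) of the 10 elongases and desaturases in the 22 livers, with 1 point per mouse and horizontal bars for the group mean and SD. Elovl7 and Scd2 in KO_chow lie above every array of the other groups, whereas Elovl3 lies between 3.17 and 4.46 in KO_chow and between 3.55 and 4.11 in KO_UDCA.

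Elovl3 extends saturated and monounsaturated chains to very long lengths. Its log2 levels in WT_chow were 6.00, 5.08, 6.12, 5.77 and 6.13, against 3.81, 3.17, 4.46, 3.77 and 3.47 in KO_chow. Every knockout array on chow lay below every wild-type array on chow. Elovl3 changed by -2.08 (SE 0.27, limma adjusted p = 1.38e-05), a fold of 4.23 lower. Without KO_chow replicates 2 and 5 the change was -1.805 with a limma adjusted p of 0.000786.

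In knockout mice on UDCA, Elovl3 remained below its level in wild-type mice on chow. In KO_UDCA the lowest, median and highest log2 levels were 3.55, 3.91 and 4.11, inside the range of KO_chow. The change from KO_chow to KO_UDCA was 0.12, with a 95% interval from -0.42 to 0.66 and a limma adjusted p of 0.846, and without KO_chow replicates 2 and 5 it was -0.159 with a limma adjusted p of 0.859. The upper end of that interval, 0.66, is below the fall of 2.08, which was measured between genotypes on chow. Between the genotypes on UDCA the change was smaller, at -0.89. WT_UDCA itself was at -1.07 from WT_chow, and neither of these changes was called. KO_UDCA and WT_chow differ in both genotype and diet. Relative to WT_chow, KO_UDCA was lower by a change of -1.96 (95% interval -2.50 to -1.43, limma adjusted p = 0.00091), and the groups did not overlap. In this comparison 1 of 10 members was called, beside 0.025% of all genes. Elovl3 was one of the 6 genes called, with Cyp2c70, Sult2a1, Pls1, Tafa2 and Mrc2, behind Cyp2c70 and Sult2a1 by p. Sult2a1, a sulfotransferase that acts on bile acids and steroids, also remained lower there, by a change of -3.16 (SE 0.37, limma adjusted p = 0.000167).

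In wild-type mice on UDCA, Elovl3 was the member farthest from its chow level. Its log2 levels in WT_UDCA ran from 3.51 through a median of 5.01 to 5.22. The WT_UDCA and WT_chow arrays overlapped, since WT_chow reached down to 5.08. The change was -1.07 (95% interval -1.61 to -0.54), and it was not called, with a limma adjusted p of 0.461. In WT_UDCA vs WT_chow, 0 of 10 members were called beside 0% of all genes, while 1338 genes, 5.57%, had an unadjusted limma p below 0.05. Between the UDCA groups, KO_UDCA vs WT_UDCA gave -0.89 (95% interval -1.40 to -0.38, limma adjusted p = 0.525).

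Those UDCA groups overlapped through WT_UDCA replicate 4 at 3.51, as the other WT_UDCA arrays lay at or above 4.52 and KO_UDCA reached 4.11. Without that array the change was -1.136, with a limma adjusted p of 0.0762. This was the extreme of 12 fits that left out 1 array. They ran from -1.136 to -0.794, with limma adjusted p from 0.0762 to 0.834, and were never called. In KO_UDCA vs WT_UDCA 0 of 10 members were called, beside 0.0167% of all genes, and 1 member had an unadjusted limma p below 0.05. The order of Elovl3 means was thus WT_chow at 5.82 ± 0.44 (SD, n = 5), WT_UDCA at 4.75 ± 0.66 (n = 6), KO_UDCA at 3.86 ± 0.21 (n = 6) and KO_chow at 3.74 ± 0.48 (n = 5), and each neighbouring pair overlapped. Elovl3 lay below the array's own median in 5 of 5 KO_chow arrays, 6 of 6 KO_UDCA arrays and 2 of 6 WT_UDCA arrays. Dim probes compress differences, so its folds are sizes on this array and not exact changes of RNA.

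Elovl7, which extends saturated chains, showed the largest rise among the 10 members in KO_chow vs WT_chow. Its log2 levels were 4.07, 4.31, 4.04, 4.30 and 3.75 in WT_chow and 5.80, 7.99, 6.16, 5.70 and 7.38 in KO_chow. The KO_chow arrays all lay above the others, and replicates 2 and 5 were the highest. The change was 2.51 (SE 0.30, limma adjusted p = 4.09e-06), a fold of 5.7, and without replicates 2 and 5 it was 1.791 with a limma adjusted p of 4.27e-07. In KO_UDCA the levels ran from 4.00 through a median of 4.25 to 4.63. That range overlapped WT_chow and WT_UDCA, the latter spanning 4.04 to 4.64. The change from KO_chow to KO_UDCA was -2.28 (SE 0.28, limma adjusted p = 1.35e-05), and without replicates 2 and 5 it was -1.562 with a limma adjusted p of 2.88e-06. KO_UDCA vs WT_chow gave 0.23, with a 95% interval from -0.36 to 0.82. The SD of Elovl7 was 1.02 in KO_chow and 0.20 to 0.25 in the other groups. The model shares 1 variance among the groups, so its SEs and intervals for Elovl7 do not reflect this difference. When only both groups were fitted, the limma adjusted p was 0.00197 for KO_chow vs WT_chow and 0.00262 for KO_UDCA vs KO_chow. Elovl7 lay below the array median in all WT_chow, WT_UDCA and KO_UDCA arrays, so its fold is likewise not an exact change of RNA.

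Scd2 introduces the first double bond into saturated chains and, in mice, is one of a family of stearoyl-CoA desaturases. Its log2 levels were 5.85, 5.82, 5.82, 5.53 and 5.94 in WT_chow and 6.61, 7.44, 6.80, 6.66 and 6.62 in KO_chow. Replicate 2 was highest, and the lowest KO_chow array still lay above the highest WT_chow array. The change was 1.03 (SE 0.16, limma adjusted p = 0.000128), a fold of 2.05, and without replicates 2 and 5 it was 0.897 with a limma adjusted p of 0.00132. In KO_UDCA Scd2 ran from 5.72 through a median of 6.02 to 6.60. It fell by 0.73 from KO_chow (SE 0.15, limma adjusted p = 0.00299), and without both arrays the change was -0.597 with a limma adjusted p of 0.0377. KO_UDCA lay just under KO_chow, which began at 6.61, and its 2 highest arrays, replicates 3 and 4 at 6.60 and 6.33, exceeded every wild-type array. KO_UDCA vs WT_chow was not called, at 0.30 with a 95% interval from -0.02 to 0.62.

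Scd1, the main stearoyl-CoA desaturase of adult mouse liver, averaged 12.14 ± 0.18 (SD, n = 5) in WT_chow and 12.19 ± 0.08 (n = 5) in KO_chow. Its change was 0.04, with a 95% interval from -0.14 to 0.23. Scd3 fell by 0.42 (SE 0.12, limma adjusted p = 0.0245), and without KO_chow replicates 2 and 5 it was at -0.47 with a limma adjusted p of 0.0694. The mouse Scd genes are close in sequence, so probes of one may read RNA of another. In the RefSeq order of coding genes on chromosome 19, Scd3, Scd2, Scd4 and Scd1 follow each other directly, and the difference between their changes was not tested.

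Fads3 acts on the sphingoid base of ceramides and differs in this from the other front-end desaturases. Its log2 levels were 5.75, 6.15, 6.02, 5.72 and 5.89 in WT_chow and 6.38, 7.11, 6.21, 6.34 and 6.48 in KO_chow. The groups did not overlap, with replicate 2 again the highest. The rise was 0.60 (SE 0.13, limma adjusted p = 0.00339), a fold of 1.51, and without replicates 2 and 5 it was 0.404 with a limma adjusted p of 0.0432. In KO_UDCA the levels ran from 5.88 through a median of 6.06 to 6.36, overlapping KO_chow. Fads3 fell by 0.41 (SE 0.13, limma adjusted p = 0.0347). Without KO_chow replicates 2 and 5 the change was -0.22 and was no longer called (limma adjusted p = 0.351), and without KO_chow replicate 2 alone it was -0.263 (limma adjusted p = 0.127).

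The polyunsaturated branch moved little. Fads1, which adds a double bond after the last elongation toward arachidonic acid, had log2 levels of 11.07, 10.97, 10.93, 10.94 and 11.10 in WT_chow and 10.89, 10.68, 10.80, 10.86 and 10.63 in KO_chow. The groups did not overlap, although the nearest arrays stood at 10.93 and 10.89. Fads1 fell by 0.23 (SE 0.07, limma adjusted p = 0.0349), a fold of 1.17. The change without replicates 2 and 5 was -0.148 and was not called (limma adjusted p = 0.337), and the call was also lost in 6 of 10 fits that left out 1 array. In KO_UDCA vs KO_chow Fads1 changed by 0.20 (95% interval 0.06 to 0.34, limma adjusted p = 0.0641), and without replicates 2 and 5 by 0.119 (limma adjusted p = 0.481).

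Fads2, the first desaturase of the polyunsaturated route, averaged 11.77 ± 0.14 (SD, n = 5) in WT_chow and 11.56 ± 0.17 (n = 5) in KO_chow. Its change was -0.21 (95% interval -0.41 to -0.02, limma adjusted p = 0.156). Elovl5, which elongates the products of Fads2, had log2 levels from 11.01 to 11.29 in WT_chow and from 10.69 to 11.08 in KO_chow. Its change was -0.25 (95% interval -0.44 to -0.06, limma adjusted p = 0.0748). Elovl2, which extends polyunsaturated chains toward docosahexaenoic acid, was the steadiest member, with group means between 10.73 and 10.79. Its change was 0.01, with a 95% interval from -0.14 to 0.16. In KO_UDCA vs KO_chow the changes were 0.21 for Fads2 (95% interval 0.02 to 0.40), 0.24 for Elovl5 (0.06 to 0.42) and 0.04 for Elovl2 (-0.10 to 0.19), and none of the 3 was called. Without KO_chow replicates 2 and 5, Fads2 was at -0.102 and Elovl5 at -0.134 in KO_chow vs WT_chow. In KO_UDCA vs KO_chow they were then at 0.097 (limma adjusted p = 0.706) and 0.129 (limma adjusted p = 0.55). Fads3, Fads2 and Fads1 follow each other directly among the coding genes of chromosome 19, and Fads3 and Fads1 changed in opposite directions in KO_chow.

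Elovl6 lengthens the product of fatty acid synthase. Its log2 levels ran from 8.68 to 8.98 in WT_chow and from 8.08 to 8.77 in KO_chow, which overlapped. The change was -0.33 (95% interval -0.68 to 0.02, limma adjusted p = 0.227). In KO_UDCA Elovl6 spread from 8.20 through a median of 8.92 to 9.31, wider than in any other group. The change from KO_chow was 0.41 (95% interval 0.07 to 0.75, limma adjusted p = 0.113). Without KO_UDCA replicate 4 it was 0.548 and was called, with a limma adjusted p of 0.0141. Without both KO_chow arrays that stood apart, the change from KO_chow was 0.184 and was not called (limma adjusted p = 0.679). In that setting Elovl6 was at -0.106 in KO_chow vs WT_chow (limma adjusted p = 0.828). Elovl1, an elongase of very long saturated chains, had group means between 7.36 and 7.57. Its change was 0.16 (95% interval -0.06 to 0.38) in KO_chow vs WT_chow and -0.17 (-0.38 to 0.04) in KO_UDCA vs KO_chow.

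In KO_UDCA vs KO_chow 3 of 10 members were called, beside 11.2% of all genes. All 3 were lower, beside 6.22% of all genes, and 0 were higher, beside 5.03%. The median member change was 0.08, against 0.033 for all genes. KO_chow is the control of this comparison and the test group of the one with WT_chow, so a change in KO_chow enters both with opposite sign. The genotype by diet interaction, which asks whether the effect of UDCA differed between genotypes, was called for 2 of 10 members beside 2.67% of all genes. It was -2.44 for Elovl7 (SE 0.40, limma adjusted p = 0.00171) and -0.90 for Scd2 (SE 0.22, limma adjusted p = 0.0279). Without KO_chow replicates 2 and 5 the interaction was -1.723 for Elovl7 (limma adjusted p = 6.99e-05) and -0.764 for Scd2 (limma adjusted p = 0.0896). For Elovl3 it was 1.19 (95% interval 0.43 to 1.95, limma adjusted p = 0.0847), near the threshold. The Elovl3 interaction was called with log2 of intensity plus 16 (limma adjusted p = 0.0465). It was also called without WT_chow replicate 2 (0.0476) and without KO_chow replicate 3 (0.0411). Without KO_chow replicates 2 and 5 it was 0.915 and not called (limma adjusted p = 0.407).

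**Figure D2:**
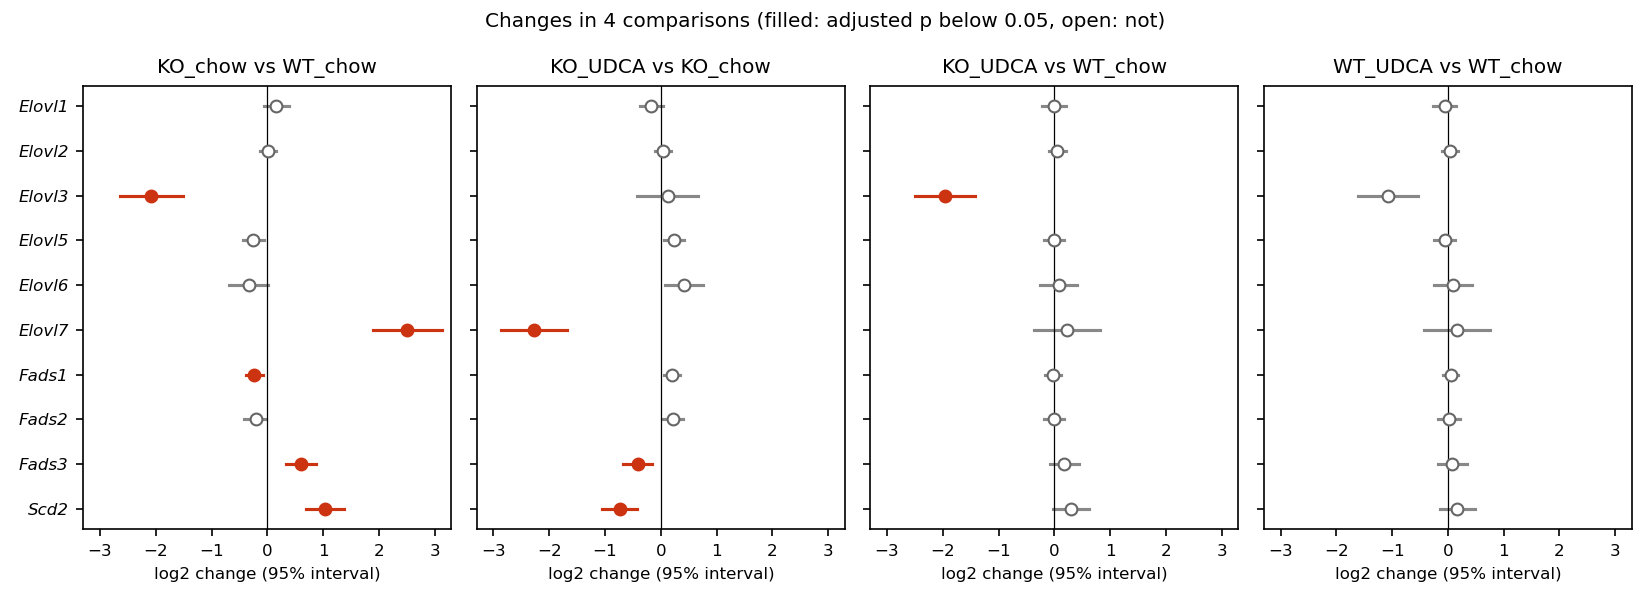
Log2 change (horizontal axis) of each member in 4 comparisons, with bars for the 95% interval, filled points at an adjusted p below 0.05 and open points otherwise. Filled points for Elovl7, Scd2 and Fads3 lie right of 0 in the first panel and left of 0 in the second, which share the KO_chow mice, and Elovl3 is at -2.08 in KO_chow vs WT_chow and at -1.96 in KO_UDCA vs WT_chow.

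The 3 members that rose did so in livers where markers of non-hepatocytes were higher. In whole liver, more cells of a type and more RNA per cell cannot be told apart. For scale, 7.69% of all genes were called higher in KO_chow vs WT_chow. Cholangiocyte markers were called higher in 9 of 9 measured genes in KO_chow vs WT_chow, with a summed intensity of 714 to 1383 in KO_chow, 296 to 318 in WT_chow, 290 to 329 in WT_UDCA and 313 to 470 in KO_UDCA. Macrophage markers were higher in 8 of 10, with sums of 1072 to 3896 in KO_chow, 714 to 843 in WT_chow, 722 to 891 in WT_UDCA and 730 to 1050 in KO_UDCA. Stellate cell and fibroblast markers were higher in 9 of 12, with sums of 3177 to 4044 in KO_chow against 1946 to 2015 in WT_chow, 1800 to 2027 in WT_UDCA and 1860 to 2536 in KO_UDCA. Neutrophil markers were higher in 5 of 6, with sums of 101 to 184 in KO_chow against 81 to 96 in WT_chow, 76 to 113 in WT_UDCA and 78 to 99 in KO_UDCA. Among endothelial markers 1 of 9 and among lymphocyte markers 1 of 8 were higher. With so few genes these counts are near the 7.69% of all genes. Of adipocyte markers 0 of 6 were called, where 13.7% of all genes were. On this array scale 0 marker values were at 0.

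Within KO_chow the macrophage sums of replicates 1 to 5 were 1072, 3896, 1750, 1096 and 2975, and the cholangiocyte sums were 947, 1383, 714, 839 and 1094. Replicates 2 and 5, highest in Elovl7, were also highest in both sums. Replicate 2, highest in Scd2 and Fads3, was highest in both as well. Replicate 5, second in both sums, was second in Fads3 at 6.48 but had a Scd2 level of 6.62, near the lowest of the group. Among KO_UDCA mice, replicates 3 and 4 had the highest cholangiocyte sums, 470 each, and the highest Scd2 levels. Their macrophage sums of 742 and 805 lay within the wild-type range. Other mice went the other way. KO_UDCA replicate 5 had the next cholangiocyte sum, 384, but the lowest Scd2 level of its group, 5.72. KO_chow replicate 3 had the lowest cholangiocyte sum of its group, 714, but the second Scd2 level, 6.80. The part of these cell types in the changes of Elovl7, Scd2 and Fads3 was not tested.

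**Figure D3:**
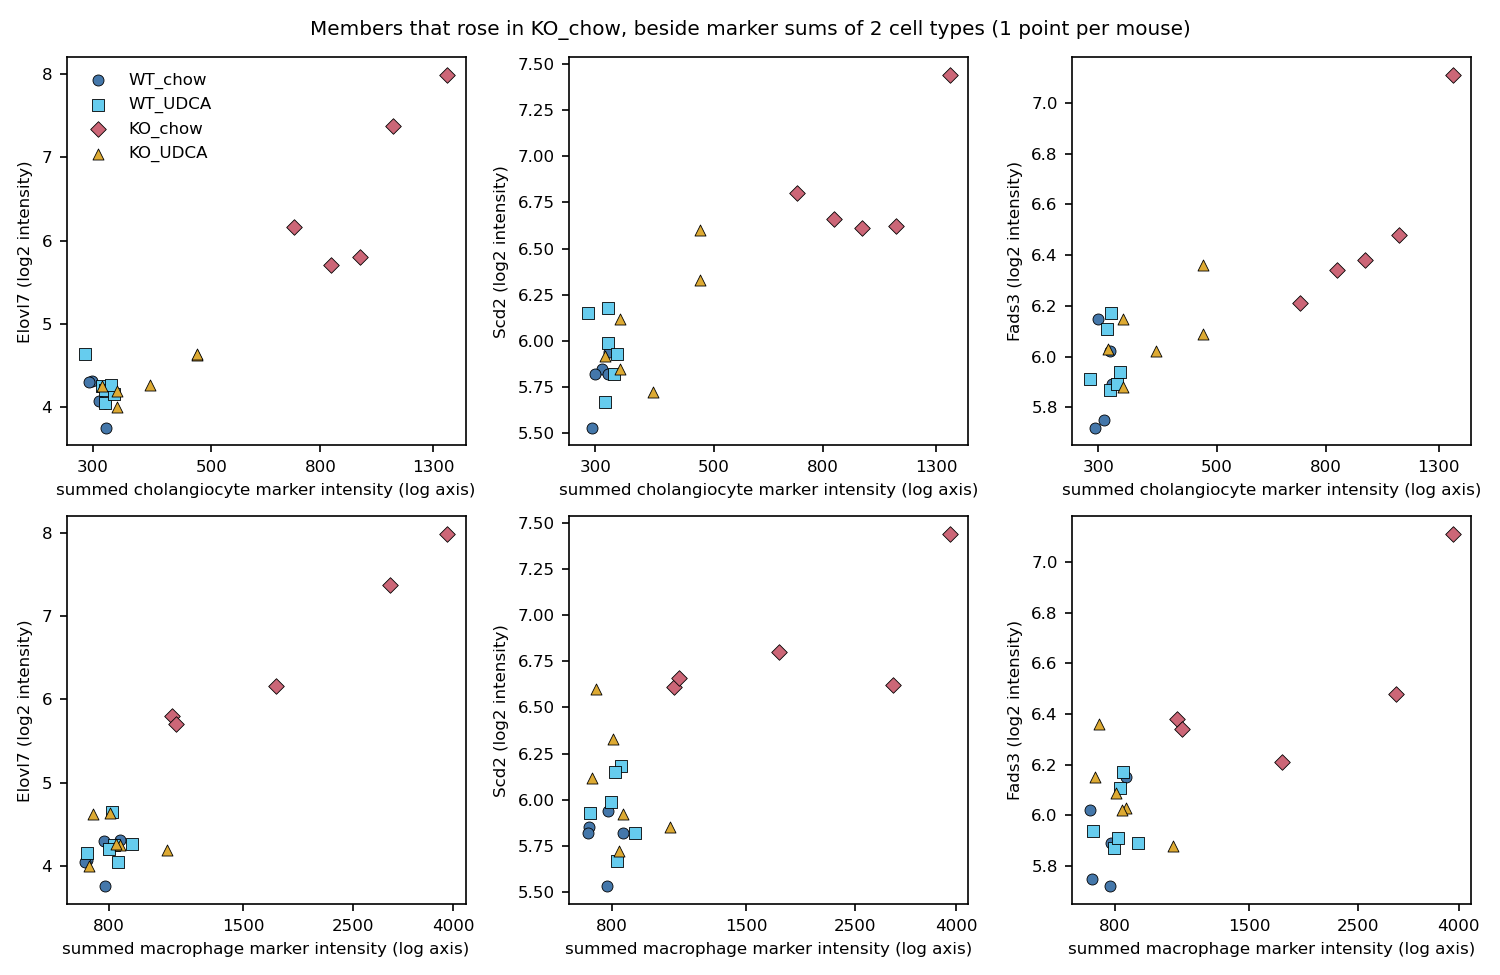
Log2 levels of Elovl7, Scd2 and Fads3 (vertical axes) against the summed intensity of cholangiocyte markers (upper row) and macrophage markers (lower row), on log horizontal axes, with 1 point per mouse. KO_chow replicates 2 and 5, at Elovl7 levels of 7.99 and 7.38, stand at the right of both rows. KO_UDCA points stand at cholangiocyte sums of 470 (2 mice), 384, and 333 (replicates 1 and 6), above the wild-type highest of 329. Their macrophage sum reaches 1050 in 1 mouse, above the wild-type highest of 891.

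Elovl7 was closest in pattern over the 22 arrays to Emp1, Anxa2, Timp1, Itgax and Cxcl14. Likeness was the mean absolute difference of log2 values after centring each gene on its own WT_chow mean, over 19852 candidate genes. The difference from Elovl7 was 0.19 for Emp1, 0.21 for Anxa2, 0.21 for Timp1, 0.25 for Itgax and 0.26 for Cxcl14, and the median over all candidates was 0.77. Emp1 is a membrane protein of epithelia, Anxa2 a membrane-binding annexin, Timp1 an inhibitor of matrix metalloproteinases and Itgax an integrin of myeloid cells that is also in the macrophage list. Elovl3 had no neighbour that close. Its nearest were Mup-ps12 at 0.71, Cyp8b1 at 0.77, Sult2a3 at 0.78, Lrtm1 at 0.81 and Uchl3 at 0.81, against a median of 1.38. Cyp8b1, the sterol hydroxylase that directs bile acid synthesis to cholic acid, averaged 9.66 in WT_chow, 9.51 in WT_UDCA, 6.84 in KO_chow and 8.70 in KO_UDCA. The difference between its response to UDCA and that of Elovl3 was not tested.

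Around the 10 members, 75 other genes of fatty acid metabolism in 8 lists were measured. In KO_chow vs WT_chow 5 of the 75 were higher, beside 7.69% of all genes, and 17 lower, beside 6.03%. In KO_UDCA vs KO_chow 14 were higher, beside 5.03% of all genes, and 6 lower, beside 6.22%. In KO_UDCA vs WT_chow 0 of the 75 were called, where 0.025% of all genes were. Of the 7 elongation cycle partners, only Tecr, the last reductase of the cycle, was called in KO_chow vs WT_chow, a share near the 13.7% of all genes. Tecr fell by 0.34 (SE 0.08, limma adjusted p = 0.00796) and rose by 0.38 in KO_UDCA vs KO_chow (limma adjusted p = 0.0032). Neither change of Tecr was called without KO_chow replicates 2 and 5, at -0.252 (limma adjusted p = 0.136) and 0.292 (limma adjusted p = 0.0821). Of the 6 genes that supply electrons to desaturases 0 were called, and the lowest p was that of the cytochrome Cyb5b at -0.27. Among 8 other elongases and desaturases 2 fell, Fads6 at -0.44 and Scd3 at -0.42, while Elovl4 was at -0.09 with a 95% interval from -0.34 to 0.17. Without both arrays Fads6 was at -0.346 and not called (limma adjusted p = 0.0822), as was the case for Scd3.

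The regulators that fell included Scap, whereas Srebf1 was not called. Among 13 transcriptional regulators 5 fell in KO_chow vs WT_chow, beside 6.03% of all genes, and 0 rose, beside 7.69%. Scap, which escorts SREBP to its activation, fell by 0.78 (SE 0.09, limma adjusted p = 4.24e-06), from 9.07 ± 0.06 (SD, n = 5) to 8.29 ± 0.16 (n = 5), and was 9.03 ± 0.13 (n = 6) in KO_UDCA. Without KO_chow replicates 2 and 5 its change was -0.673 with a limma adjusted p of 0.000162. The coactivator Ppargc1b fell by 0.86 and the glucose-responsive factor Mlxipl by 0.68, and without both arrays neither was called, at -0.589 (limma adjusted p = 0.0547) and -0.374 (limma adjusted p = 0.237). Srebf1 itself, the gene of SREBP-1c, was at -0.22 (95% interval -0.50 to 0.07).

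Of 9 genes of fatty acid synthesis 2 fell, beside 6.03% of all genes, and 0 rose, beside 7.69%. Acss2, which makes acetyl-CoA from acetate, fell by 1.13 (SE 0.23) and Acacb, an acetyl-CoA carboxylase, by 0.60 (SE 0.13). Neither was called without KO_chow replicates 2 and 5, at -0.813 for Acss2 (limma adjusted p = 0.0638) and -0.484 for Acacb (limma adjusted p = 0.0617). Of 8 peroxisomal genes 4 fell, beside 6.03% of all genes. They included the transporters Abcd2 by 0.83 and Abcd3 by 0.51 and the thioesterase Acot4 by 0.72. Of these 3, Abcd2 was called without both arrays, at -0.587, and Abcd3 at -0.269 and Acot4 at -0.376 were not. Among 10 genes of uptake and activation, Acsl4, an arachidonate-preferring acyl-CoA ligase, rose by 0.63 (limma adjusted p = 0.00143), and the transporters Slc27a2 and Slc27a5 fell by 0.35 and 0.31. Of 14 genes of acyl chain incorporation 4 rose, beside 7.69% of all genes, and 1 fell, near the 6.03% of all genes. Mboat1, a lysophospholipid acyltransferase, rose by 1.10, the ceramide synthase Cers5 by 0.56 and Lpcat1, another acyltransferase, by 0.44. Those 3 and Acsl4 were called without both arrays, whereas Slc27a2 at -0.182 and Slc27a5 at -0.181 were not.

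**Figure D4:**
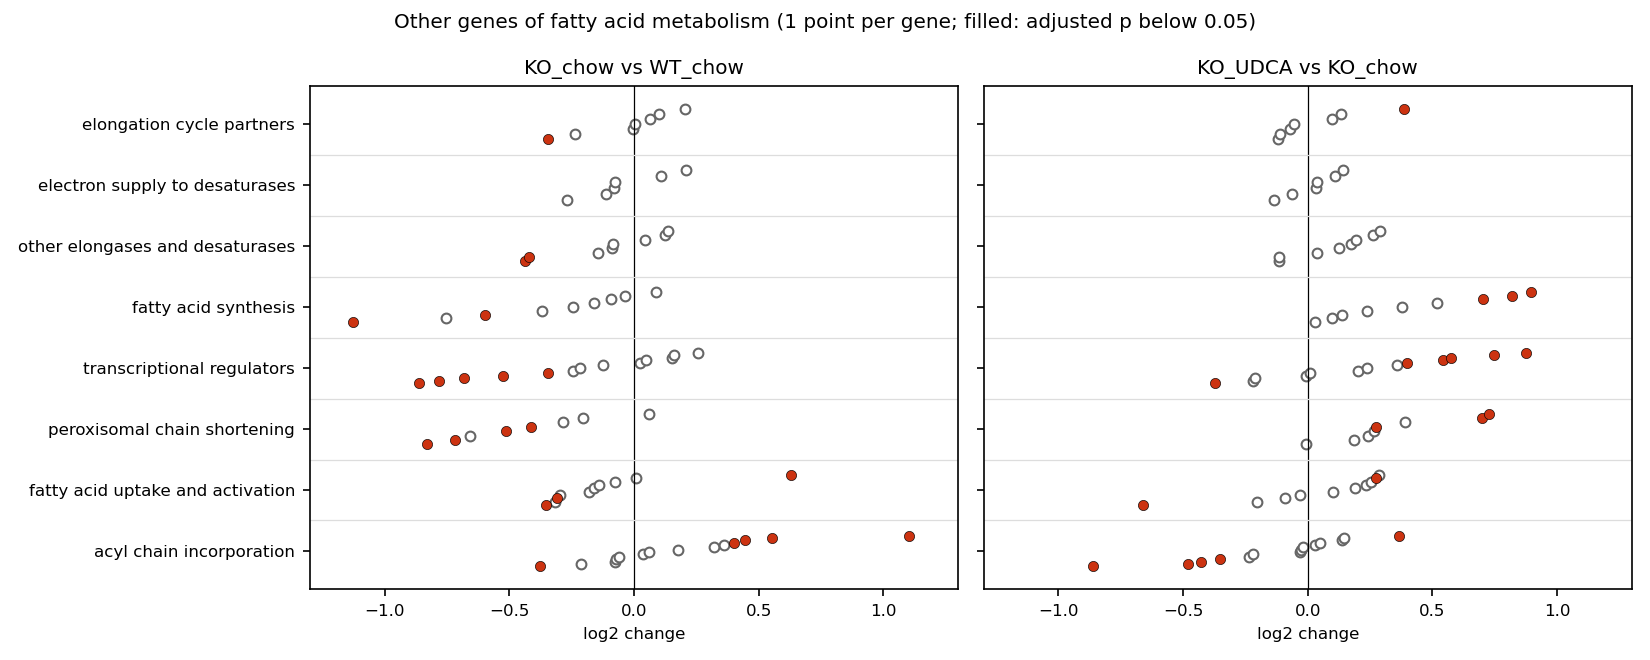
Log2 change (horizontal axis) of 75 other genes of fatty acid metabolism by list, with 1 point per gene and filled points at an adjusted p below 0.05, in KO_chow vs WT_chow (left) and KO_UDCA vs KO_chow (right). Filled points in the synthesis and peroxisomal lists lie below 0 on the left and above 0 on the right, and those of acyl chain incorporation reach 1.10 on the left.

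Because Elovl3 is known for a sex difference and a daily rhythm, lists for both were read beside it. Elovl3 itself belongs to none of these lists, and all mice were female, so its sex difference could not be read here. Of 11 female-biased liver genes 10 fell in KO_chow vs WT_chow, beside 6.03% of all genes, with a median change of -1.49. In KO_UDCA vs KO_chow 8 of the 11 rose, beside 5.03% of all genes. Elovl3 changed by 0.12 in KO_UDCA vs KO_chow and was not called. Sult2a1 fell by 4.71 (SE 0.39), to a KO_chow mean of 3.01, which is below the array medians, so this size is not exact. Sult3a1 fell by 2.38 (SE 0.36), and Cyp3a16 fell by 2.52 (SE 0.79). Sult2a1 and Sult3a1 were also called without KO_chow replicates 2 and 5, and Cyp3a16 was not, at -2.408 (limma adjusted p = 0.187). Of 12 male-biased genes 4 fell, beside 6.03% of all genes, and 2 rose, beside 7.69%. The transporter Slco1a1 fell by 1.61 and the nudix hydrolase Nudt7 by 0.81, and the complement component C6 rose by 0.91. Without both arrays C6 was called, while Slco1a1 was at -1.201 (limma adjusted p = 0.195) and Nudt7 at -0.428 (limma adjusted p = 0.326). Of 14 clock genes 3 fell, beside 6.03% of all genes, and 0 rose, beside 7.69%. Those that fell were Nr1d1 by 0.75, Hlf by 0.74 and Cry2 by 0.55. Without both arrays none of those 3 clock genes was called, at -0.41 for Nr1d1, -0.492 for Hlf and -0.469 for Cry2. The time of day at which livers were taken is not stated in the labels, and the part of rhythm or of sex-biased regulation in the level of Elovl3 was not tested.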

How the data were processed

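Liver RNA of 22 mice was read on 1-colour arrays, and the replicate is the mouse. The deposited intensity values come, per the labels, from RMA with probe-level models and are unlogged. No build of the genome is named in the sources used here. Of 24973 rows, 24015 had exactly 1 symbol in the platform annotation and 958 had none. 23922 rows were matched by gene identifier to RefSeq (GRCm38.p6), which changed 0 symbols. For 4 symbols on several rows the brightest row was kept, leaving 24011 genes.

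Intensities were converted to log2 with no pseudocount and no filter. In limma 3.58.1 (R 4.3.3), all 22 arrays entered a model with 1 mean for each group and empirical Bayes variances shared by the 4 groups. P-values are two-sided and adjusted by Benjamini-Hochberg within each of 6 comparisons. The fit was tested on simulated data with independent genes and 1 SD per gene for all groups. That test does not cover groups of unequal spread or genes that move together. The number of arrays limits the precision.

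Members, lists and tests were chosen with earlier results of these data known. The 11 pathway lists held 122 genes, 10 of them unmatched, and the 8 marker lists 77, 6 unmatched. All 10 members are named. From each pathway list the text names up to 3 called genes with the largest change in KO_chow vs WT_chow, otherwise the one with the smallest p, and always Scd1, Elovl4, Srebf1 and Mlxipl. Replicate numbers follow record order and pair nothing. Alternatives were other scales, normalizations, filters, variance models, sample runs and arrays left out. Figures were drawn with matplotlib 3.10.9 in Python 3.11.15.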

Additional observations from a re-analysis of the deposited data

Results flagged for a closer look

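Among 40 sets of member and group, 3 held an array far from the rest by Dixon's criterion, where chance gives about 1 in 20. Elovl6 in WT_UDCA replicate 4 was 8.44, with the other WT_UDCA arrays between 8.96 and 9.06. The same mouse had the lowest Elovl3 level of its group, 3.51. Elovl7 in WT_UDCA replicate 5 was 4.64, with the others between 4.04 and 4.26. Scd2 in KO_chow replicate 2 was 7.44, with the others between 6.61 and 6.80. The effect of UDCA differed between genotypes for Elovl7, with an interaction of -2.44 (limma adjusted p = 0.00171), and for Scd2, with an interaction of -0.90 (limma adjusted p = 0.0279). For both genes all KO_UDCA arrays lay below all KO_chow arrays.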

How the results depend on the processing

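Over 60 results and 1330 pairs of a result and an alternative, 1288 kept their side of the threshold, 26 lost the call, 16 gained it and 0 reversed a called direction. Uncalled changes near 0 could switch sign, as Elovl3 did in KO_UDCA vs KO_chow. In KO_chow vs WT_chow 5 members were called, 4 to 5 with any 1 array left out and 3 in samples numbered 1 to 15. In KO_UDCA vs KO_chow 3 were called, 2 to 4 with 1 array left out and 5 each with log2 of intensity plus 16, with the filter on dim genes (12905 genes) and with an intensity trend and robust variance. The interaction was called for 2, for 1 to 3 with 1 array left out, for 1 without KO_chow replicates 2 and 5 and for 0 in samples numbered 1 to 15, where Elovl7 was at -2.046 with a limma adjusted p of 0.144. It was 1 without KO_chow replicate 2 or without WT_chow replicate 4, where Scd2 was lost. Samples 1 to 15 and 16 to 22 of the labels each held all 4 groups, and no label calls them a batch. The samples numbered 1 to 15 held 3 arrays each in WT_chow and in WT_UDCA.

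Fads1 in KO_chow vs WT_chow was not called when only both groups were fitted (limma adjusted p = 0.129) or after quantile normalization (0.148). Fads3 in KO_UDCA vs KO_chow lost its call in 7 of 11 fits without 1 array and when only both groups were fitted (0.106), and in KO_chow vs WT_chow in samples numbered 1 to 15 (0.11). Elovl5 was called in both comparisons under the 3 settings that called 5 members. Elovl3 stayed called in KO_chow vs WT_chow and in KO_UDCA vs WT_chow under every alternative run. Its changes were smallest with log2 of intensity plus 16, at -1.298 and -1.256. The background moved too. Over all genes, 3295 calls in KO_chow vs WT_chow became 2008 when only both groups were fitted, 1055 in samples numbered 1 to 15 and 1089 without KO_chow replicates 2 and 5. In KO_UDCA vs KO_chow 2701 calls became 1454, 866 and 673 under the same settings, and 1652 and 1632 without KO_chow replicate 2 or 5 alone. The 642 interaction calls became 38 in samples numbered 1 to 15 and 207 without both arrays, and ran from 301 to 1219 with 1 array left out, the extremes being KO_chow replicates 2 and 4. The 4 calls in KO_UDCA vs WT_UDCA fell to as few as 1, those in KO_UDCA vs WT_chow ran from 3 to 11, and WT_UDCA vs WT_chow reached 1. No paired analysis was possible because the columns carry no replicate numbers that pair mice.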
